A study of Mus musculus with 12 samples.

Results

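Crispld2, Ecm1, Prss23, Emilin2 and Cck are 5 genes for secreted proteins, out of 54184 genes measured in cultured mouse nephron progenitor cells (NPCs). They were chosen from measured values, for low levels in the nephron progenitor expansion medium (NPEM) and high levels outside it, so their differences from the NPEM control are given as a description with no test. RNA was sequenced in 12 libraries, 3 per group, and the methods state 3 independent NPC preparations. The groups were YN1 in DMEM, CHIR in DMEM, DMEM control and NPEM control. All of them came from E13.5 kidneys of CD1 females mated with Six2GFP+ or GFP- males, with the genotype given as WT, and the cells were isolated by magnetic sorting, expanded in NPEM for 2 to 3 passages and held for 24 h in the test medium. YN1, an inhibitor of the glycolysis regulator PFKFB3, was used at 20 µM, and CHIR (CHIR99021), a GSK3 inhibitor that activates WNT signaling, at 3.5 µM. Both drugs were given in DMEM with knockout serum replacement and FGF2. The composition of the DMEM control is not described, so it may differ from the drug media in more than the drug, and NPEM differs from all DMEM-based media in many components.

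Nephron progenitors lie in the cap mesenchyme of the embryonic kidney, where they either renew themselves or turn into the epithelium of new nephrons, and WNT signals from the ureteric bud start the second course. Secreted proteins of such a mesenchyme build the matrix between cells, cut or cross-link it, and carry signals over short distances. Crispld2 is a secreted glycoprotein with CAP and LCCL domains that was linked to facial clefts in humans. Ecm1 is a matrix glycoprotein whose loss causes lipoid proteinosis in humans. Prss23 is a secreted serine protease of the trypsin type, Emilin2 is a glycoprotein of elastic microfibrils, and Cck encodes cholecystokinin, a peptide hormone of gut and brain that acts through the receptors Cckar and Cckbr.

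The deposited value is TPM, an abundance relative to the library total, which is scaled for transcript length, so levels of different genes can be set side by side. TPM keeps no read count, and the depth of a library is therefore unknown. The libraries summed to 969477 to 973162 TPM, and 13754 to 14569 genes reached 1 TPM in a library. The progenitor genes Six2 and Cited1 were present, with means of 103 and 41.9 TPM in YN1, 72.3 and 2.88 TPM in CHIR, 115 and 49.6 TPM in the DMEM control, and 121 and 50.4 TPM in the NPEM control. Of the 10 progenitor markers, Eya1, Osr1, Meox1 and Itga8 also had their lowest means in CHIR. Wt1 and Pax2 had their highest there, 87.7 and 6.12 TPM against 65.5 and 1.71 TPM in the DMEM control. Sall1 and Gdnf differed little between CHIR and the DMEM control. Markers of kidney stroma, mainly the collagen genes Col1a1 and Col3a1, were also high, and the 11 markers summed to 1689 to 3674 TPM in YN1, 1622 to 3544 TPM in CHIR, 1761 to 4291 TPM in the DMEM control and 1465 to 3740 TPM in the NPEM control. Of 6 endothelial markers, Emcn was present (means of 106 TPM in YN1, 23.6 TPM in CHIR, 159 TPM in the DMEM control and 104 TPM in NPEM) and Kdr reached a mean of 7.42 TPM in NPEM, while Cdh5, Pecam1, Tek and Tie1 were at or near 0. Of 7 macrophage and blood markers, Cd68 had means of 4.01 to 6.47 TPM and Hba-a1 of 0.0508 to 4.36 TPM, Ptprc and Csf1r were below 1 TPM, and Adgre1, C1qa and Hbb-y were listed at 0 in all libraries. In bulk RNA, fewer cells of a type and less RNA per cell cannot be told apart.

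The 5 genes lie on different chromosomes. In the GRCm38.p6 annotation of RefSeq, Crispld2 spans chr8:119992438-120052794, Ecm1 chr3:95734147-95739876, Prss23 chr7:89507783-89527187, Emilin2 chr17:71252172-71311556 and Cck chr9:121489824-121495694. The 250 bases before a transcript start were read for each gene, 2 starts for Emilin2, and searched on both strands for the TATA box TATAAA, the CCAAT box CCAAT, the GC box GGGCGG, the E-box CACGTG, the AP-1 site TGANTCA, the cAMP response element TGACGTCA, the TCF/LEF cores CTTTGA and CTTTGT and the nuclear receptor motif AGGTCA. Of the 7 RefSeq windows of Prss23 only 1 was read. The windows read for Ecm1, Prss23 and the second start of Emilin2 lie within the gene spans given above. The sequences below are those of Crispld2, Ecm1, Emilin2 (the second start) and Cck. Crispld2 and Ecm1 had the most alike profiles of the 5 after each gene was centred on its own mean. Emilin2 and Cck differed most between the drugs. Capitals mark the motifs found.
Crispld2: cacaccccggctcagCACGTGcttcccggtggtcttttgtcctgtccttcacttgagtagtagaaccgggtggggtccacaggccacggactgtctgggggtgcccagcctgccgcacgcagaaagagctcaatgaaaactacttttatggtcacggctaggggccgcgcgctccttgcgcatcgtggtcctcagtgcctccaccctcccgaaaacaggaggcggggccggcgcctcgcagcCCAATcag
Ecm1: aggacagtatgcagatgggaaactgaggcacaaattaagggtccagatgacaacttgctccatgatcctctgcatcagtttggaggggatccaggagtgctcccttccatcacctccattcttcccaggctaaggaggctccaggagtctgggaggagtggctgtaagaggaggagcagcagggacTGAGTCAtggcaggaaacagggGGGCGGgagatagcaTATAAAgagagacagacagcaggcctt
Emilin2 start 2: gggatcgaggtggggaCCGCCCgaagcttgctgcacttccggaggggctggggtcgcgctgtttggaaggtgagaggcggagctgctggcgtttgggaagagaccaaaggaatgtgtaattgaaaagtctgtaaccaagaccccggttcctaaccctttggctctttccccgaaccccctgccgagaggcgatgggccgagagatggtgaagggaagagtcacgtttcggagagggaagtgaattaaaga
Cck: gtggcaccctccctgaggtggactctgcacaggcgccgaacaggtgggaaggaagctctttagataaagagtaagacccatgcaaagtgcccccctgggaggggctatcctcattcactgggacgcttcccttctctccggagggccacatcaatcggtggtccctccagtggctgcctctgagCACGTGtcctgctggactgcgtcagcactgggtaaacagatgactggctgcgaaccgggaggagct
They cover chr8:119992188-119992437 on the plus strand, and chr3:95739570-95739819, chr17:71311012-71311261 and chr9:121495695-121495944 on the minus strand, each written 5′ to 3′ and ending at the base before the start.

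No motif was common to the 5 genes in the windows read. The Crispld2 window held a CCAAT box 8 to 4 bases before the start, a motif held by 33.8% of windows, and an E-box 235 to 230 bases before it. A second E-box stood in the Cck window, 66 to 61 bases before the start, and 6.02% of the 32851 RefSeq windows of this length held one. Ecm1 had a TATA box 27 to 22 bases before the start, which 12.4% of windows held, with a GC box at 42 to 37 and an AP-1 site at 64 to 58, and the GC box was found in 32.7% and the AP-1 site in 6.75% of windows. Emilin2 had 1 GC box, read on the opposite strand at 234 to 229 bases, in the second window and no motif in the first. The Prss23 window held 3 GC boxes, of which 2 overlapped by 1 base, and was 74.4% G and C, against a median of 52.4% over all windows. Neither TCF/LEF core, present in 13.8% and 16.5% of windows, occurred in any of the windows read, which says only that these letters are not there.

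The level of Crispld2 was 40.8, 25.2 and 39.6 TPM in YN1, 31.3, 12.2 and 27.9 TPM in CHIR, 27.9, 25.4 and 31.4 TPM in the DMEM control, and 0.325, 0.9998 and 1.28 TPM in the NPEM control (replicates 1, 2 and 3). All 9 DMEM-based libraries lay above the 3 of NPEM, and the 3 DMEM-based groups overlapped one another. The ratio of means to the NPEM control was 40.6 in YN1, 27.4 in CHIR and 32.6 in the DMEM control. The order of the means, YN1 (35.2 ± 8.67), DMEM control (28.2 ± 3.04) and CHIR (23.8 ± 10.2; SD, n = 3 each), did not exceed the spread between replicates, and only the step down to NPEM (0.868 ± 0.490) did.

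Ecm1 had the highest mean of the 5 genes in every group. It measured 233, 140 and 267 TPM in YN1, 186, 146 and 185 TPM in CHIR, 238, 127 and 238 TPM in the DMEM control, and 7.63, 10.6 and 27.7 TPM in the NPEM control. No NPEM library reached the lowest DMEM-based one, but Ecm1 was not near 0 in NPEM. Its mean there was 15.3 ± 10.8 TPM, above the mean of Cck or Emilin2 in the DMEM control, and the ratio of means was 13.9 in YN1, 11.3 in CHIR and 13.1 in the DMEM control. The means of YN1 (213 ± 65.7), the DMEM control (201 ± 64.2) and CHIR (172 ± 22.7) stood within their spread.

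Prss23 varied widely between the replicates of a drug. Its level was 302, 90.03 and 126 TPM in YN1, 164, 43.4 and 175 TPM in CHIR, 140, 93.4 and 115 TPM in the DMEM control, and 3.69, 4.02 and 11.02 TPM in the NPEM control. The lowest DMEM-based library, CHIR replicate 2, was still above the highest NPEM library. The ratio of means to NPEM was 27.7 in YN1, 20.4 in CHIR and 18.6 in the DMEM control. The order of the means, YN1 (173 ± 114), CHIR (127 ± 73.0) and DMEM control (116 ± 23.4), did not exceed the spread.

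Emilin2 did not follow the other genes. It measured 1.408, 1.99 and 6.12 TPM in YN1, 43.5, 105 and 60.3 TPM in CHIR, 2.86, 1.57 and 5.16 TPM in the DMEM control, and 1.406, 0.773 and 0.953 TPM in the NPEM control. The CHIR libraries stood far above all others, while YN1 and the DMEM control overlapped and their lowest libraries lay just above the highest of NPEM. The ratio of means to the NPEM control was 66.8 in CHIR, and 3.04 in YN1 and 3.06 in the DMEM control. In order, the means were CHIR (69.7 ± 32.0), DMEM control (3.20 ± 1.82), YN1 (3.17 ± 2.57) and NPEM (1.04 ± 0.326), and those of the DMEM control and YN1 did not differ beyond their spread. A high level outside NPEM, for which the 5 genes were chosen, was thus found for Emilin2 only with CHIR.

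Cck was the gene nearest to 0 in NPEM. It measured 7.65, 11.6 and 7.71 TPM in YN1, 1.01, 6.70 and 1.77 TPM in CHIR, 6.82, 8.92 and 7.53 TPM in the DMEM control, and 0.142, 0 and 0 TPM in the NPEM control, where 2 libraries are listed at 0. All DMEM-based libraries were above those of NPEM, with CHIR between NPEM and the other 2 groups. The means of YN1 (8.99 ± 2.28) and the DMEM control (7.76 ± 1.07) overlapped in their libraries, and the CHIR mean was 3.16 ± 3.09 TPM, set largely by replicate 2. A fold against NPEM is not given, because only 1 of its libraries is above 0. A long non-coding gene, Gm38661, overlaps Cck in the annotation, and its mean stayed at or below 0.0215 TPM in every group.

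**Figure D1:**
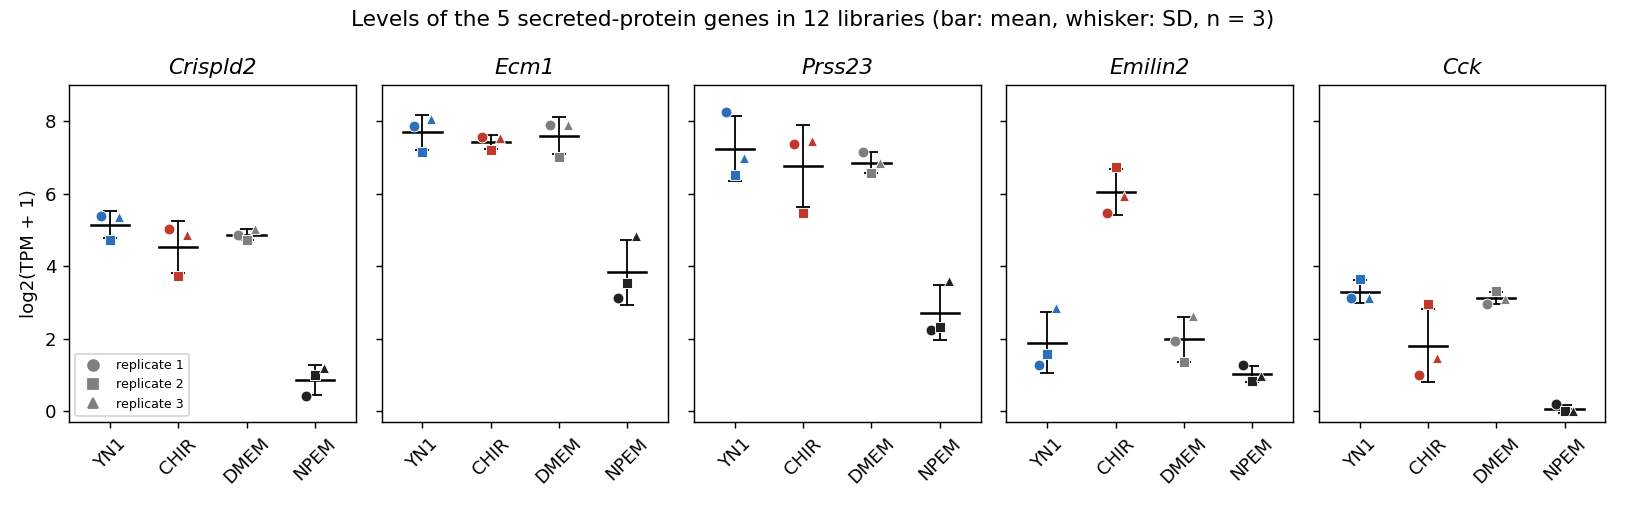
Level of each gene on the log2(TPM + 1) axis in the 12 libraries, by group; symbols mark the replicate number, bars the mean and whiskers the SD of 3 libraries. Crispld2, Ecm1 and Prss23 stand high in all 3 DMEM-based groups, Emilin2 only in CHIR (43.5 to 105 TPM), and Cck is lower in CHIR (1.01 to 6.70 TPM) than in YN1 and the DMEM control.

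The 5 genes thus lay above the NPEM libraries without overlap in each of the 3 comparisons with NPEM. This is what they were chosen for, and nothing is read from it. Over all genes tested, 14.2% were higher without overlap in YN1, 5.66% in CHIR and 15.1% in the DMEM control. A gene was tested if it had at least 1 TPM in at least 3 of the 6 libraries compared. All 5 passed this filter in each comparison, and against NPEM Crispld2, Emilin2 and Cck passed only through their DMEM-based libraries.

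The choice of the genes did not settle whether either drug moved them from the DMEM control, except for Emilin2 with CHIR. Emilin2 was high outside NPEM only in CHIR, so its choice already drew on that difference. Each comparison was made on log2(TPM + 1) with limma, without pairing by replicate number, and the fit with that number as a block is an alternative. LogFC is the difference between group means on that scale, where the added 1 makes differences of low genes look smaller than their ratios. With CHIR, Emilin2 rose and the other 4 genes did not pass the test. Its LogFC against the DMEM control was 4.07 (SE 0.43, 95% interval 3.06 to 5.09, adjusted p = 0.0384 by limma with Benjamini-Hochberg adjustment, n = 3 each), the second highest of 14313 genes. That makes 1 of the 5 genes called, where 0.252% of all genes were called, 5 higher (0.0349%) and 31 lower, or 1 and 1 with quantile normalization. Its libraries did not overlap, and 5.75% of all genes tested were higher without overlap. With the replicate number as a block the number of calls over all genes was 1832 (12.8%) in place of 36, and Emilin2 was called with an adjusted p of 0.0205. The CHIR libraries were among the values seen when Emilin2 was chosen, so its LogFC, rank and p are a description and not independent evidence. The summed endothelial markers, nearly all of it Emcn, were 14.9 to 32.2 TPM in CHIR and 98.7 to 240 TPM in the DMEM control, with Cdh5 near 0, and their part in the CHIR differences was not tested.

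The size of the Emilin2 difference varied between replicate numbers. The ratio of CHIR to the DMEM control was 15.2, 67.0 and 11.7 for replicates 1, 2 and 3, higher in 3 of 3. Each ratio rests on 1 library per group, and the DMEM control library of replicate 2 was at 1.57 TPM. The call was lost whenever 1 of the 6 libraries was left out, with adjusted p between 0.0677 (without CHIR replicate 2) and 0.204 (without CHIR replicate 3), and 0.0843, 0.0929, 0.127 and 0.0939 without CHIR replicate 1 and DMEM control replicates 1, 2 and 3. It was also lost with no filter on low values (0.144), with a minimum mean of 5 TPM (0.0539) and with quantile normalization (0.0662), while LogFC stayed between 3.73 and 4.46 over the 14 alternatives.

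Cck pointed the other way. All 3 CHIR libraries were below all 3 of the DMEM control, as were 20.2% of all genes, and LogFC was -1.32 (SE 0.50, 95% interval -2.50 to -0.13). The adjusted p was 0.22 by limma, so the difference did not pass. By replicate number the ratio of CHIR to the DMEM control was 0.148, 0.751 and 0.235, with the smallest difference in replicate 2. Only the fit of all 4 groups with the replicate block gave an adjusted p below the threshold (0.0254).

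For the 3 genes that were high in all DMEM-based groups, CHIR gave small LogFC values. Crispld2 had -0.34 (95% interval -1.16 to 0.49), Ecm1 -0.17 (-0.81 to 0.46) and Prss23 -0.09 (-1.34 to 1.16), with adjusted p of 0.630, 0.757 and 0.945 by limma. These intervals still leave room for a difference of more than 1 log2 unit in Prss23 in either direction. Without CHIR replicate 2 the sign turned for Prss23 (LogFC 0.56) and Crispld2 (0.07), and without DMEM control replicate 1 it turned for Prss23 (0.06).

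With YN1 none of the 5 genes differed from the DMEM control beyond the spread. LogFC was 0.28 (95% interval -0.24 to 0.81) for Crispld2, 0.09 (-0.73 to 0.90) for Ecm1, 0.39 (-0.67 to 1.45) for Prss23, -0.08 (-1.33 to 1.16) for Emilin2 and 0.17 (-0.39 to 0.74) for Cck. The libraries of the 2 groups overlapped for all 5, while 1.33% of all genes were higher and 1.21% lower without overlap. Limma called 0 of 14500 genes in this comparison (0%), 75 genes (0.517%) had an unadjusted p under 0.05, none of them among the 5, and limma without trend called 1. The intervals exclude a change of the size that Emilin2 showed with CHIR, but not one of 1 log2 unit in Prss23 or Emilin2.

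Set directly against each other, the drugs stood apart without overlap in Emilin2 and Cck only, of the 5 genes. Emilin2 was lower in YN1 than in CHIR for each replicate number, with a LogFC of -4.16 (SE 0.49, 95% interval -5.33 to -2.98), the second lowest of 14269 genes. Its adjusted p was 0.0672 by limma and 0.0314 with the replicate block (SE 0.39), so the call rests on the block. Emilin2 was high only in the CHIR libraries from which it was chosen, so these values too are not independent evidence. Cck was higher in YN1 without overlap, with a LogFC of 1.49 (SE 0.51, 95% interval 0.26 to 2.72) and an adjusted p of 0.269. In this comparison 0.00701% of all genes were called, 1 gene, or 223 genes (1.56%) with the block, and 18.3% were higher and 4.79% lower without overlap. Crispld2 (LogFC 0.62), Ecm1 (0.26) and Prss23 (0.48) did not pass, with adjusted p of 0.460, 0.652 and 0.747. The 3 comparisons among the DMEM-based groups share libraries and are not independent of one another.

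**Figure D2:**
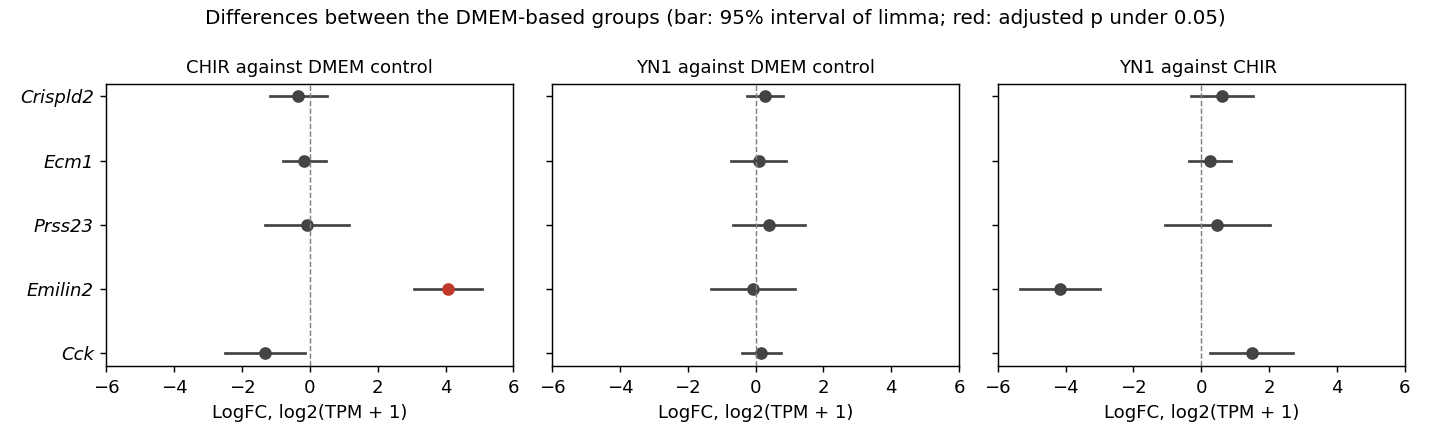
LogFC of each gene on the log2(TPM + 1) scale (points) with its 95% interval from limma (bars), for CHIR against the DMEM control, YN1 against the DMEM control and YN1 against CHIR. Emilin2 has the largest difference of the 5 (4.07 with CHIR, adjusted p = 0.0384, n = 3 each, in red; -4.16 between the drugs), Cck stands on the other side of 0 from it, and all intervals for YN1 against the DMEM control include 0. Emilin2 was chosen with its CHIR values seen, so its p is not independent evidence.

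The replicate numbers carried a pattern of their own. In YN1, CHIR and the DMEM control alike, replicate 2 had the lowest level of Crispld2, of Ecm1 and of Prss23, and the highest of Cck. For Prss23 the highest library was 3.36 times the lowest in YN1 and 4.04 times in CHIR. In NPEM this order did not hold, and replicate 1 was lowest for those 3 genes. The summed stroma markers were also lowest in replicate 2, at 1689 against 3674 and 3449 TPM for replicates 1 and 3 of YN1, 1622 against 3544 and 3072 TPM in CHIR, and 1761 against 4291 and 3223 TPM in the DMEM control, while the summed progenitor markers were highest in it, at 878, 651 and 882 TPM. The summed ureteric bud and collecting duct markers had another order, with replicate 3 highest in every group. It had 105 TPM in YN1, 94.8 TPM in CHIR, 102 TPM in the DMEM control and 94.9 TPM in NPEM. The part of these 3 marker sums in the levels of the 5 genes was not tested. Between the DMEM-based groups and NPEM the stroma sums overlapped, and the members of that list went different ways. Foxd1, a gene of the stromal progenitors, had means of 2.71 TPM in YN1, 0.756 TPM in CHIR, 3.03 TPM in the DMEM control and 0.0251 TPM in NPEM, and Col1a1 and Col3a1 also had higher means outside NPEM. Postn had means of 84.4, 97.4, 82.3 and 356 TPM in the same groups, and Tcf21 and Aldh1a2 also had their highest means in NPEM. The part of these genes was likewise not tested.

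Likeness between genes was measured as the mean absolute difference of log2(TPM + 1) over the 12 libraries, after each gene was centred on its own mean. By this measure Crispld2 and Ecm1 were closest (0.32), followed by Crispld2 and Prss23 (0.38) and Ecm1 and Prss23 (0.46). Cck was 0.82 to 1.07 from these 3, and Emilin2 was 1.81 to 1.95 from every other gene. These distances include the step from NPEM for which the genes were chosen. Over the 9 DMEM-based libraries alone, an alternative chosen after the data were seen, Crispld2 was 0.27 from Ecm1 and 0.37 from Prss23, Ecm1 was 0.48 from Prss23, Cck was 0.70 to 1.08 from these 3, and Emilin2 was 1.92 to 2.45 from every other gene. Both sets of distances are descriptions over libraries that share 3 replicate numbers, and the nearest genes given next were found over all 12.

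Among 12296 other named genes, those nearest to Crispld2 were Ecm1, Tgm2 (0.35) and Prss23, those nearest to Ecm1 were Crispld2, Tgm2 (0.45) and Prss23, and those nearest to Prss23 were Tgm2 (0.32), Crispld2 and Anxa3 (0.45). Tgm2, a transglutaminase that cross-links matrix proteins, thus came among the nearest 3 of all 3 genes, with means of 36.2 TPM in YN1, 38.1 TPM in CHIR, 41.5 TPM in the DMEM control and 1.10 TPM in NPEM. Anxa3, an annexin, had means of 181, 92.1, 115 and 13.48 TPM in the same groups.

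Emilin2 was nearest to the leptin receptor gene Lepr (0.55), followed by Cd83 (0.83), which encodes a surface protein of immune cells, and Wnt4 (0.83), the WNT ligand that drives the change of cap mesenchyme into epithelium. Wnt4 had means of 8.23 TPM in YN1, 100.2 TPM in CHIR, 6.20 TPM in the DMEM control and 0.501 TPM in NPEM, and those of Lepr were 1.78, 26.2, 1.97 and 1.16 TPM in the same groups. The summed markers of the early nephron, which include Wnt4, were 88.5 to 268 TPM in CHIR, against 36.1 to 101 TPM in YN1, 40.4 to 89.8 TPM in the DMEM control and 23.3 to 55.4 TPM in NPEM. Their part in the level of Emilin2 was not tested, and within CHIR the sum was lowest in replicate 2, where Emilin2 was highest.

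Cck was nearest to Ackr3 (0.40), a receptor that takes up chemokines, to Tgm5 (0.40), another transglutaminase, and to Hic1 (0.41), a transcriptional repressor. Ackr3 had means of 35.3 TPM in YN1, 7.16 TPM in CHIR, 38.0 TPM in the DMEM control and 2.32 TPM in NPEM. With the Pearson correlation in place of the distance, 2, 3, 2, 2 and 1 of the nearest 3 genes remained for Crispld2, Ecm1, Prss23, Emilin2 and Cck, so the neighbours of Cck depend most on the measure.

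**Figure D3:**
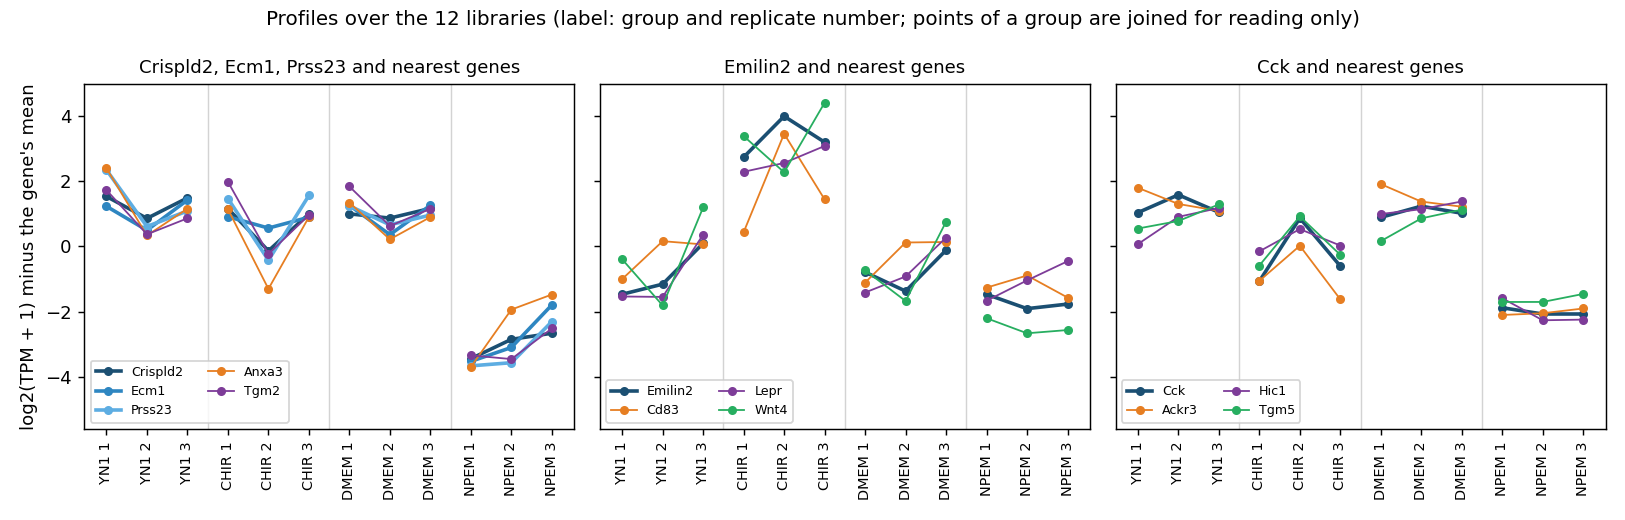
Centred log2(TPM + 1) over the 12 libraries for the 5 genes (thick lines) and their nearest genes (thin lines), with group and replicate number on the horizontal axis. The left and right panels are lowest in NPEM, and the middle panel is highest in CHIR. Outside NPEM, Crispld2 and Prss23 were lowest at replicate 2 of CHIR, where Prss23 was 43.4 TPM.

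Relatives and partners of the 5 genes were read as 7 lists of 74 genes, of which 70 are in the files and 43 to 44 were tested in a comparison. Few of them passed the main test. Their share called was above that of all genes in CHIR and the DMEM control against NPEM. It rests on 1 gene called in both (Plat) and 1 called in CHIR (Npy), so nothing is read from it. Against NPEM, limma called 0 in YN1, where 0.23% of all genes were called. It called 1 higher and 1 lower in CHIR (4.65% of those tested, beside 0.378% of all genes), and 1 higher in the DMEM control (2.27%, beside 0.446%). At an unadjusted p under 0.05 there were 12 higher and 3 lower of 43 tested in YN1, 9 and 4 of 43 in CHIR, and 13 and 3 of 44 in the DMEM control, where 14.2%, 11.9% and 15.5% of all genes passed it. None passed between the DMEM-based groups, where CHIR against the DMEM control had 2 higher and 8 lower at the unadjusted threshold, YN1 against the DMEM control had 0 of either, and YN1 against CHIR had 6 higher and 1 lower, beside 19.2%, 0.517% and 15.5% of all genes. With the replicate block the calls were 3 in YN1, 4 in CHIR and 10 in the DMEM control against NPEM, 14 in CHIR and 0 in YN1 against the DMEM control, and 2 between the drugs, where 108 (0.754%), 233 (1.66%), 933 (6.5%), 1832 (12.8%), 0 (0%) and 223 (1.56%) genes were called over all.

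Of 8 secreted serine proteases other than Prss23, the one that passed was Plat, tissue plasminogen activator. It measured 151, 263 and 218 TPM in YN1, 198, 191 and 224 TPM in CHIR, 175, 260.3 and 203 TPM in the DMEM control, and 44.3, 76.9 and 37.7 TPM in the NPEM control. Every DMEM-based library was above every NPEM library, and the 3 DMEM-based groups overlapped. Plat rose in CHIR (LogFC 1.99, SE 0.26, adjusted p = 0.0402 by limma) and in the DMEM control (2.03, SE 0.28, adjusted p = 0.0468), and in YN1 it had 2.00 (SE 0.31, adjusted p = 0.0704). These calls were close to the threshold. That of CHIR was lost without CHIR replicate 1 (0.109) or 3 (0.176) and without NPEM replicate 1 (0.110) or 3 (0.118), and that of the DMEM control without DMEM control replicates 1, 2 and 3 (0.0863, 0.105 and 0.155) or NPEM replicates 1 (0.104) and 3 (0.126). The call was also lost in CHIR with no filter (0.177) and without trend (0.0622), and in the DMEM control with no filter (0.163), a filter at a mean of 5 TPM (0.0515), 0.1 TPM as pseudocount (0.0516), quantile normalization (0.061) and no trend (0.0614). Plat passed in 8 of 14 alternatives in CHIR and in 4 of 14 in the DMEM control.

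Prss35, a close relative of Prss23, was lower in level in every group. It measured 82.0, 6.65 and 13.6 TPM in YN1, 5.97, 1.89 and 3.62 TPM in CHIR, 31.0, 5.32 and 10.96 TPM in the DMEM control, and 0.318, 0.399 and 0.125 TPM in NPEM. All DMEM-based libraries were above those of NPEM, with replicate 2 the lowest of each DMEM-based group, as in Prss23. LogFC against NPEM was 4.04 in YN1, 1.83 in CHIR and 3.395 in the DMEM control, with adjusted p of 0.107, 0.111 and 0.0636 by limma, and with the replicate block that of the DMEM control passed (0.0328), as did CHIR against the DMEM control (LogFC -1.57, 0.0326). Htra1, a secreted protease of another family, measured 350.0, 33.5 and 364 TPM, against 76.8, 10.5 and 16.3 TPM in YN1, 60.4, 9.85 and 12.9 TPM in the DMEM control, and 13.8, 9.203 and 5.98 TPM in NPEM. It was higher in CHIR than in the DMEM control for each replicate number, with a LogFC of 2.97 and an adjusted p of 0.201 by limma, or 0.0415 with the block. The median LogFC of the list against NPEM was 1.29 in YN1, 1.305 in CHIR and 1.04 in the DMEM control, beside 0.09, -0.06 and 0.09 over all genes tested.

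**Figure D4:**
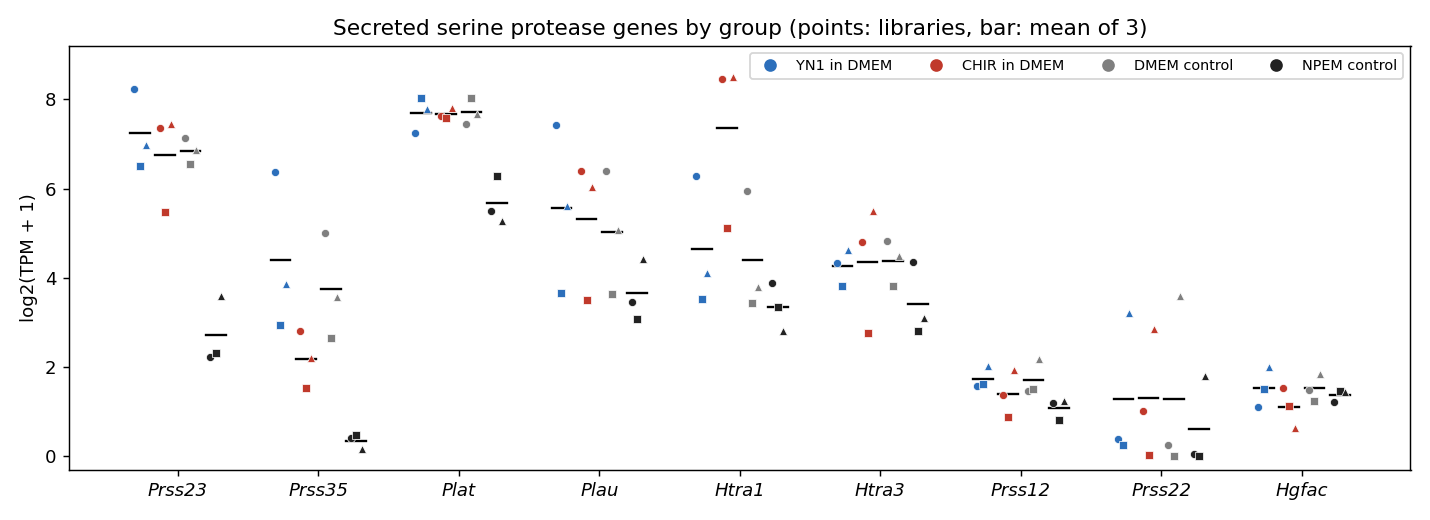
Prss23 and the 8 other secreted serine protease genes on the log2(TPM + 1) axis, by group from left to right; points are libraries, with the same symbols for replicates 1, 2 and 3 (circle, square, triangle), and bars are means of 3. Prss23, Prss35 and Plat lie above NPEM in all DMEM-based libraries, and Htra1 is highest in CHIR replicates 1 and 3 (350.0 and 364 TPM).

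Genes of elastic fibres and microfibrils, the structures that Emilin2 is named for, did not share its rise with CHIR. All 14 genes found were tested and none passed the main test. Against NPEM the list had a median LogFC of 1.10 in YN1, 0.49 in CHIR and 1.07 in the DMEM control, and 7, 3 and 8 of its genes were higher at an unadjusted p under 0.05, with 1 lower in CHIR, where 9.51%, 4.4% and 10.8% of all genes were higher at that threshold. Between CHIR and the DMEM control the median was -0.50 beside -0.15 over all genes, with 11 of 14 genes below 0. With the replicate block 7 of the 14 fell in CHIR against the DMEM control (Eln, Fbln5, Lox, Ltbp3, Mfap2, Mfap4 and Mfap5), where 9.44% of all genes fell and 3.36% rose, and 6 rose in the DMEM control against NPEM (Efemp2, Fbln5, Fbn1, Lox, Mfap4 and Mfap5), where 4.32% of all genes rose and 2.19% fell. Fbln5 and Lox also rose with the block in YN1 against NPEM, and Lox in YN1 against CHIR.

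Lox, the enzyme that cross-links elastin and collagen, averaged 473 ± 283 TPM in YN1, 176 ± 113 TPM in CHIR, 354 ± 170 TPM in the DMEM control and 88.2 ± 39.2 TPM in NPEM (SD, n = 3 each). With the block its LogFC was -1.10 in CHIR against the DMEM control (limma adjusted p = 0.0326). Mfap5, a microfibril glycoprotein, averaged 13.3 ± 9.06 TPM in YN1, 5.04 ± 1.73 TPM in CHIR, 11.9 ± 6.28 TPM in the DMEM control and 0.930 ± 0.341 TPM in NPEM, and its LogFC with the block was -1.001 in CHIR against the DMEM control (limma adjusted p = 0.0457).

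Of the EMI-domain relatives of Emilin2, 3 of 6 were tested and none passed the main test in any comparison. Emilin1 was abundant in every group, with means of 226 TPM in YN1, 243 TPM in CHIR, 300.4 TPM in the DMEM control and 242 TPM in NPEM, and Mmrn1 was listed at 0 in all libraries. With the block Emid1 fell in CHIR against the DMEM control (LogFC -0.75, limma adjusted p = 0.0469). For Crispld2, 3 to 5 of 10 relatives with a CAP domain were tested and none passed the main test. Crispld1, the nearest of them, averaged 5.51 TPM in YN1, 2.45 TPM in CHIR, 7.84 TPM in the DMEM control and 8.28 TPM in NPEM, with LogFC against NPEM of -0.83, -1.52 and -0.38. With the replicate block the value for CHIR passed (limma adjusted p = 0.0481), as did CHIR against the DMEM control for Crispld1 (LogFC -1.14, 0.0428) and Glipr2 (LogFC 0.52, 0.031). Of the relative and known binding partners of Ecm1, 4 of 5 were tested and none passed the main test. With the block Mmp9, a matrix protease, passed in CHIR against the DMEM control (LogFC 1.02, limma adjusted p = 0.0312) and in YN1 against CHIR (LogFC -1.29, limma adjusted p = 0.0433). The median LogFC of this list against NPEM was -0.10 in YN1, 0.03 in CHIR and -0.14 in the DMEM control.

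The transcripts needed to process and sense the Cck peptide were only partly present. The receptor genes Cckar and Cckbr had means of at most 0.0735 and 0.0157 TPM in any group, and Pcsk1, a protease that cuts prohormones, at most 0.00496 TPM. Its relative Pcsk2 had means of 1.03 TPM in YN1, 0.254 TPM in CHIR, 1.32 TPM in the DMEM control and 0.728 TPM in NPEM. Cpe, the carboxypeptidase that trims peptide hormones, averaged 254 TPM in YN1, 147 TPM in CHIR, 195 TPM in the DMEM control and 78.2 TPM in NPEM, and Pam, which amidates them, 71.5, 52.9, 68.4 and 37.6 TPM in the same groups. Of the 14 genes of this list in the files, 4 to 5 were tested and none passed.

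Among the other peptide hormone precursors, Npy, the precursor of neuropeptide Y, was lower outside NPEM. It measured 28.1, 129.7 and 42.9 TPM in YN1, 15.3, 14.3 and 5.73 TPM in CHIR, 101, 150.9 and 61.6 TPM in the DMEM control, and 279, 258 and 214 TPM in NPEM. All NPEM libraries were above all DMEM-based ones, and those of CHIR were the lowest. Npy fell in CHIR against NPEM (LogFC -4.39, SE 0.34, limma adjusted p = 0.0105), a call lost without NPEM replicate 2 (0.0649) or 3 (0.0807) and with no filter (0.0719). In YN1 and the DMEM control LogFC against NPEM was -2.18 and -1.33, with adjusted p of 0.142 and 0.120, and with the block the value of the DMEM control passed (0.0359). Between CHIR and the DMEM control its LogFC was -3.06, with an adjusted p of 0.0649 by limma and 0.0116 with the block. Edn1, the precursor of the vasoconstrictor endothelin, averaged 8.94 ± 4.42 TPM in YN1, 13.4 ± 7.86 TPM in CHIR, 4.80 ± 1.001 TPM in the DMEM control and 0.754 ± 0.196 TPM in NPEM. Its LogFC against NPEM was 2.42, 2.88 and 1.72, with adjusted p of 0.0704, 0.0539 and 0.05005 by limma, just outside the threshold, and with the block those of CHIR (0.0359) and the DMEM control (0.0262) passed.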

How the data were processed

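Poly-A RNA of 12 libraries was sequenced by the authors, not strand specific, and their processing notes name STAR, RSEM and FastQC with the builds mm9 and mm10. Their methods name Kallisto. Versions and the annotation are not given in the sources used here. The authors deposited TPM per library, collapsed to genes, and these TPM values were read as deposited. Columns and tables of the authors' own comparisons were not used. In each of 6 comparisons, genes that reached 1 TPM in 3 or more of the 6 libraries were fitted on log2(TPM + 1) with limma 3.58.1 in R 4.3.3 (lmFit, eBayes with trend). Tests were two-sided, p-values of all fitted genes were adjusted by Benjamini-Hochberg, and calls were made at an adjusted p under 0.05. The fit was tested on simulated data. The 5 genes, the lists and the tests were chosen with earlier results of these data known. Named are the 5 genes, genes of the 7 lists, the 3 genes most like each of the 5 and the markers, and the sequences are from RefSeq (GRCm38.p6), at a start within 25 bases of a GENCODE vM1 start matched by sequence. Over 15680 genes, deviations from the group means correlated at 0.349 to 0.689 in all 18 library pairs with the same replicate number, which the labels give. They correlated at -0.452 to -0.0698 in 36 pairs with different numbers, so the numbers pair the samples. The sample titles name no preparation. The main fit left this pairing out, so its intervals and p-values do not use it, while the replicate block does. The alternatives were no filter, a filter on a mean of 5 TPM, 0.1 TPM as pseudocount, quantile normalization, all 4 groups in one fit, no trend, the replicate block alone and with all 4 groups, and each library left out. Distances between the 5 genes without NPEM were added after the data were seen. Depth and its precision are unknown from TPM. Tables and figures were made with the R package data.table (version 1.17.8), Python 3.11.15, pandas 2.3.3, numpy 2.4.6 and matplotlib 3.10.9.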

Additional observations from a re-analysis of the deposited data

How the results depend on the processing

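The number of genes called depended strongly on the fit, and the cause was not tested. In the order YN1, CHIR and DMEM control against NPEM, then CHIR and YN1 against the DMEM control and YN1 against CHIR, 33, 53, 64, 36, 0 and 1 genes were called. With no filter there were 1, 1, 5, 0, 0 and 0 calls. A minimum mean of 5 TPM gave 21 in YN1 and 36 in the DMEM control against NPEM, and 1 in CHIR against the DMEM control. All 4 groups in one fit gave 284, 187, 237, 437, 0 and 242, the replicate block 108, 233, 933, 1832, 0 and 223, and both together 2374, 1506, 2025, 3503, 0 and 3002. Without trend, YN1 had 1 call against the DMEM control and 5 against CHIR. Quantile normalization gave 2 in CHIR against the DMEM control (1 higher and 1 lower, in place of 5 and 31) and 2 between the drugs (1 and 1, in place of 1 and 0), 20 higher and 16 lower in YN1 against NPEM (in place of 22 and 11), and 49 and 32 in the DMEM control (in place of 49 and 15). It moved the median of all genes by 0.16 in CHIR against the DMEM control and by -0.16 between the drugs, and by -0.11 in YN1 and -0.10 in the DMEM control against NPEM. Leaving out 1 library gave 1 to 50, 2 to 223, 10 to 38, 0 to 6, 0 to 0 and 0 to 2 calls.

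All differences of the 5 genes from NPEM kept their direction in every alternative that could be fitted. The genes were chosen for this direction and their libraries did not overlap, so nothing is read from it. The Emilin2 difference between CHIR and the DMEM control kept its direction in all 14 alternatives and passed in 5, and that between YN1 and CHIR kept it in 14 and passed in 3, with adjusted p of 0.0019 to 0.318. Emilin2 was chosen with its CHIR values seen, so both counts are a description. Cck passed in 1 of 14 in both comparisons. A change of sign occurred only among values that did not pass, when 1 library was left out. Over those fits CHIR against the DMEM control ranged from -0.58 to 0.068 for Crispld2 and -0.43 to 0.56 for Prss23, YN1 against the DMEM control from -0.21 to 0.37 for Ecm1, -0.11 to 0.76 for Prss23, -0.55 to 0.24 for Emilin2 and -0.0064 to 0.27 for Cck, and YN1 against CHIR from -0.17 to 0.85 for Prss23. The replicate block changed the call of Emilin2 between the drugs and of no other of the 5 genes outside the comparisons with NPEM. With 3 libraries per group and no read counts, differences of low genes such as Cck carry an unknown counting error.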
